A study of Mus musculus with 9 samples.

Results

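The genes of sterol and fatty acid synthesis were followed across resting and activated mouse helper T cells, with and without TEPP-46, a small molecule that activates the glycolytic enzyme pyruvate kinase M2 (PKM2). The set is a list of 33 gene symbols of GENCODE M21, matched to the identifiers of the count table, out of 47937 identifiers in all. It holds a sterol branch of 20 genes, a fatty acid branch of 11 genes and 2 transporters that carry sterol out of cells. All 33 were found in the table and passed the filter on low counts, as did 12536 genes in total. The set was listed by symbol and not by measured values, but with earlier results of these data known.

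RNA from 9 libraries was sequenced, 3 in each of 3 groups. The TEPP-46 group (Th0_TEPP) was activated with plate-bound antibodies to CD3 and CD28 after 15 min with TEPP-46. The control group (Th0_Ctrl) was activated in the same way after 15 min with DMSO, the solvent, and the resting group was not activated. The labels give TEPP-46 as a range from 50 to 100 µM, without the value for each library, and the sources used here do not say how long the cells were activated. All 3 groups were CD4+CD62L+ cells of C57BL/6 mice, taken from spleen by magnetic sorting; CD62L is carried by naive cells. Nor do they give mouse age, the number of mice behind a library or whether resting cells were cultured. The libraries of each group are numbered 1, 4 and 5, and values are given in that order throughout. No label says that the numbers mark separate animals, so p-values measure the spread between these libraries, which may be technical.

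Cholesterol is built from acetyl-CoA through mevalonate, isoprenoid units, squalene and lanosterol, and the enzymes of the route are encoded by genes that the transcription factor made from Srebf2 switches on together when sterol is scarce. Its relative from Srebf1 acts mainly on fatty acid synthesis and desaturation. When sterol is plentiful, liver X receptors instead switch on the efflux transporters Abca1 and Abcg1. A T cell that leaves rest makes new membrane, and mouse T cells are known to turn on lipid synthesis during activation.

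The total count per library lay between 2397304 and 5030643, so that a floor of 3 counts corresponded to 0.603 to 1.26 CPM (counts scaled to 1000000 per library). Libraries of the TEPP-46 group resembled each other less than those of the other groups: the correlation of log2 CPM across genes was 0.818 to 0.913 within the TEPP-46 group, 0.972 to 0.983 within the control group and 0.937 to 0.977 within the resting group. Resting replicate 1 stood furthest from its group. In the TEPP-46 group the correlation was 0.818 between replicates 1 and 4, 0.913 between 1 and 5 and 0.896 between 4 and 5. TEPP-46 replicate 4, the shallowest library, thus stood furthest from its group, by a small margin over replicate 1. Summed markers of CD4 T cells were high in every library, at 4316 to 6478 CPM in the TEPP-46 group, 2102 to 3187 CPM in the control group and 3104 to 5427 CPM in the resting group. B cell markers summed to 715 to 1102, 227 to 253 and 1697 to 1874 CPM in the TEPP-46, control and resting groups.

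Promoter windows from RefSeq (GRCm38.p6, 250 bases before to 50 bases after the start) were matched for 25 of the 33 genes, 16 of the sterol branch, 8 of the fatty acid branch and Abca1. They were searched on both strands for 3 short motifs: the sterol response element TCACNCCAC, the E-box CACGTG and CCAAT. The first was found in the window of a single member, Hmgcs1, and in 1.24% of all 32851 windows. CCAAT, the site of the factor NF-Y, which is known to act beside the sterol factors, lay in 15 of 20 windows of the sterol branch (75.0%) and in 6 of 11 of the fatty acid branch (54.5%), against 37.4% of all windows. The E-box was in 6 of the 20 sterol windows, which belong to 5 of 16 sterol genes, against 7.15% of all windows. It was also in 1 of the 11 fatty acid windows and in the Abca1 window. A gene may have several windows, which can overlap, as those of Scap do, and a match describes letters only. The windows of Hmgcs1, an enzyme gene early in the route, of Idi1 and Fasn, an example from each branch, and of Abca1 are shown because their RNA levels carry the contrasts described later; those of Idi1, Fasn and Abca1 were chosen after the matches were seen. Capitals mark the motif letters, with ATTGG standing for CCAAT on the other strand. In Hmgcs1 (chr13:119690101-119690400, plus strand) the sterol element begins 137 bases before the start, among 4 CCAAT matches. Idi1 (chr13:8885356-8885655, plus strand) has 2 CCAAT matches, and Fasn (chr11:120824498-120824797, minus strand) has 3, of which a forward and a reverse match overlap by 2 bases. In Abca1 (chr4:53159846-53160145, minus strand) the capitals are the E-box.
Hmgcs1: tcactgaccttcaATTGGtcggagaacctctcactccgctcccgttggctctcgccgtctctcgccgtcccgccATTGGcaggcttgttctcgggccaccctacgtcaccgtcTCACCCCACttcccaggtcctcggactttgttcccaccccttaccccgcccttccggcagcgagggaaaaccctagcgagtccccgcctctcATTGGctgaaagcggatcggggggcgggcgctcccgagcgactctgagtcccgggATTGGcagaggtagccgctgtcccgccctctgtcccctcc
Idi1: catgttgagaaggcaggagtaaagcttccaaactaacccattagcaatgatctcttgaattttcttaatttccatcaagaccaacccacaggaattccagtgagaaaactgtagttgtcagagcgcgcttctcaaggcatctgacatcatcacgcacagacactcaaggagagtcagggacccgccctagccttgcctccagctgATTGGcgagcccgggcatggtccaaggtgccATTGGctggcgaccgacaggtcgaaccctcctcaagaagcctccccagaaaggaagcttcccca
Fasn: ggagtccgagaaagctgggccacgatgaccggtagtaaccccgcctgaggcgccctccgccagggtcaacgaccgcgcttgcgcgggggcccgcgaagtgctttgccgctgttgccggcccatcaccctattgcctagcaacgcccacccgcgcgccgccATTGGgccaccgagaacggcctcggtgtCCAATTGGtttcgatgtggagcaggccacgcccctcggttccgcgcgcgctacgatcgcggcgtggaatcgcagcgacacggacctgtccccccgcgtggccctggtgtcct
Abca1: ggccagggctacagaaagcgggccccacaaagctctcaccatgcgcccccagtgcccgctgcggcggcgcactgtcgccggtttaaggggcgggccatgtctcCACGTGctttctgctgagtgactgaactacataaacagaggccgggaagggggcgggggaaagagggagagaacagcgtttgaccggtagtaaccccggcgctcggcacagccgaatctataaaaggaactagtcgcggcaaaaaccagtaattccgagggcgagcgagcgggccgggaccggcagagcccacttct

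Across the set, activation without the drug raised most genes of both branches, and with TEPP-46 the sterol branch differed from library to library while the efflux transporters were high in each library. Genes were called at an adjusted p below 0.05 by the quasi-likelihood test of edgeR, fitted to all 9 libraries and adjusted by Benjamini-Hochberg over the 12536 genes. In TEPP-46 over control cells, 3 of the 33 members were called higher (9.09%) and 2 lower (6.06%), against 9.72% and 6.43% of all genes tested. That background is 1219 genes higher and 806 lower, and scaling by total counts turned it to 922 higher and 1182 lower. In 12 of 33 members (36.4%) the libraries of the TEPP-46 and control groups did not overlap, 4 higher and 8 lower, against 39.7% of all genes. These shares are close to the background, so the count by itself sets the members apart in neither direction. The median log2 fold change was -0.63 over the members and 0.04 over all genes.

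In control over resting cells, 20 members were called higher (60.6%) and 3 lower (9.09%), against 15.5% and 15.8% of all genes. Libraries did not overlap in 29 members (87.9%), 26 higher and 3 lower, against 59.2% of all genes. The median log2 fold change was 1.43 over the members and -0.04 over all genes. In TEPP-46 over resting cells, 4 members were called higher (12.1%), against 6.37% of all genes. None was called lower by edgeR, DESeq2 or limma-voom, against 3.92% of all genes in edgeR, and 14 of the 33 had an unadjusted p below 0.05. Libraries did not overlap in 7 members (21.2%), all higher, against 26.8% of all genes. The medians were 0.83 over the members and 0.02 over all genes.

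**Figure D1:**
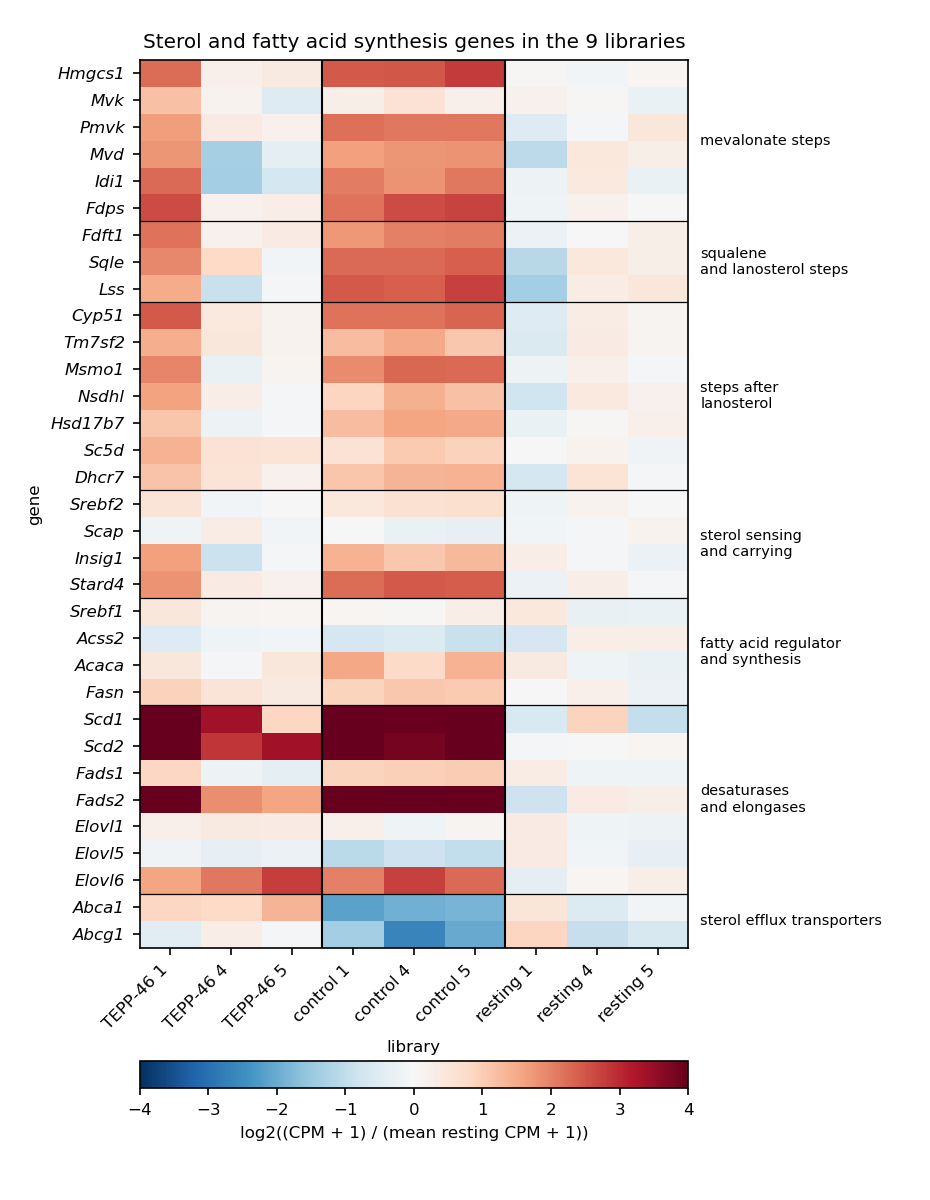
Level of each of the 33 genes (vertical axis, grouped by step) in each of the 9 libraries (horizontal axis), as log2 of (CPM + 1) over (mean CPM of the resting group + 1); colours end at -4 and 4. Most sterol genes are red in the control libraries and in TEPP-46 replicate 1 and pale in TEPP-46 replicates 4 and 5, while Abca1 and Abcg1 are deepest blue in the control libraries.

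The sterol genes summed to 3178, 1229 and 1215 CPM in the TEPP-46 libraries, 3146, 3440 and 3673 CPM in the control libraries and 971, 1280 and 1190 CPM in the resting libraries. TEPP-46 replicate 1 thus lay among the control libraries, and replicates 4 and 5 among the resting ones. The group values were 1874 ± 1129 CPM in TEPP-46, 3420 ± 264 CPM in control and 1147 ± 159 CPM in resting cells (SD, n = 3 each). The fatty acid genes summed to 1837, 1115 and 1195 CPM in the TEPP-46 libraries, 1569, 1402 and 1612 CPM in the control libraries and 922, 793 and 723 CPM in the resting libraries. All 3 TEPP-46 libraries exceeded all resting libraries in this sum, which Scd2 weighted: without it the sums were 1081, 869 and 851.5 CPM in TEPP-46 and 891, 761 and 689 CPM in resting libraries, which overlap. The transporters summed to 452, 735 and 604 CPM in the TEPP-46 libraries, 231, 96.2 and 147 CPM in the control libraries and 1099, 319.5 and 391 CPM in the resting libraries. Each TEPP-46 library was above each control library. In bulk RNA, fewer cells expressing a gene and less RNA of it per cell cannot be told apart.

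**Figure D2:**
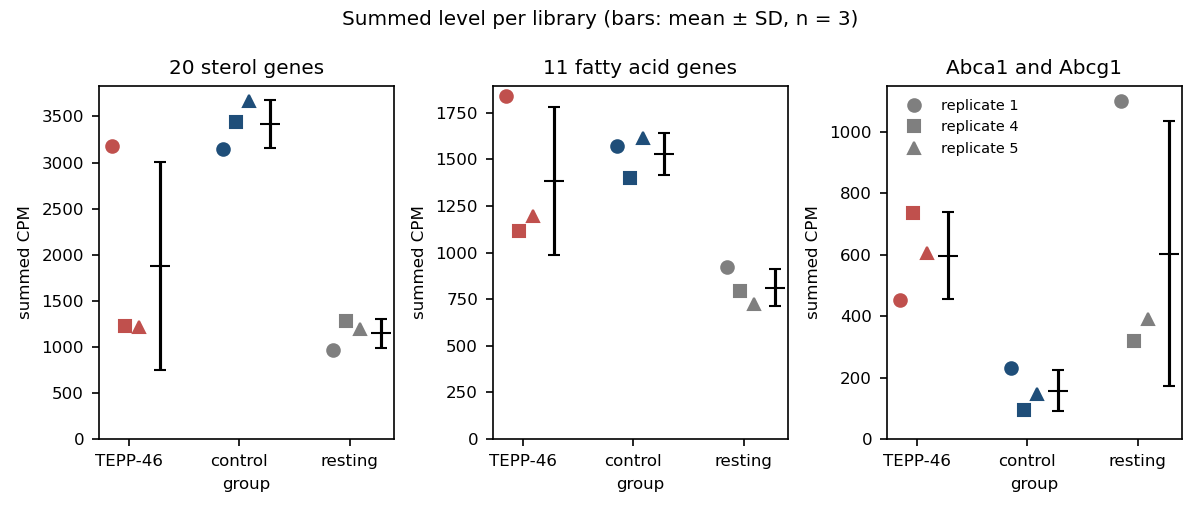
Summed CPM (vertical axes, starting at 0) of the 20 sterol genes, the 11 fatty acid genes and the 2 transporters in each library, by group (horizontal axes); symbols mark replicates 1, 4 and 5, and bars give the mean ± SD of 3 libraries. The sterol sum of TEPP-46 replicate 1 is 3178 CPM, beside 1229 and 1215 CPM in replicates 4 and 5.

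The mevalonate steps make the isoprenoid units. Hmgcs1 (chr13:119690379-119708260), which encodes the enzyme that makes HMG-CoA, had 434, 106 and 117 CPM in the TEPP-46 libraries, 505.5, 517.5 and 635 CPM in the control libraries and 93.5, 83.7 and 96.7 CPM in the resting libraries. All TEPP-46 libraries were below all control libraries and above all resting ones. Its log2 fold change was -1.33 ± 0.46 (SE; 95% interval -2.36 to -0.31) in TEPP-46 over control cells, with an adjusted p of 0.0726 by edgeR. Control exceeded resting cells by 2.60 ± 0.48 (adjusted p = 0.00356). Idi1, the isomerase that readies the units for joining, had 27.0, 1.26 and 2.59 CPM in the TEPP-46 libraries, 23.1, 19.4 and 24.2 CPM in the control libraries and 4.02, 6.60 and 3.89 CPM in the resting libraries. TEPP-46 replicate 1 was the highest of the 9 libraries, and replicates 4 and 5, with 3 and 8 counts, were below every resting library. Fdps, whose enzyme joins the units to farnesyl diphosphate, had 119, 21.0 and 22.7 CPM in the TEPP-46 libraries, 87.1, 120.3 and 129 CPM in the control libraries and 16.7, 21.1 and 18.4 CPM in the resting libraries. Here TEPP-46 replicate 1 lay within the control range, replicate 4 within the resting range and replicate 5 just above it.

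Pmvk, the phosphomevalonate kinase gene, had 56.9, 21.9 and 19.7 CPM in the TEPP-46 libraries, 83.6, 78.0 and 77.1 CPM in the control libraries and 11.7, 16.4 and 23.8 CPM in the resting libraries. All its TEPP-46 libraries were below all control libraries (-1.27 ± 0.41, adjusted p = 0.0572). Mvd, the decarboxylase gene of the route, had 87.5, 9.24 and 18.8 CPM in the TEPP-46 libraries, 80.0, 86.4 and 88.5 CPM in the control libraries and 11.5, 34.1 and 29.4 CPM in the resting libraries. Mvk, the mevalonate kinase gene, was flatter, with 31.4, 14.7 and 9.06 CPM in TEPP-46, 15.9, 20.6 and 15.4 CPM in control and 15.1, 14.0 and 11.03 CPM in resting libraries. Activation without the drug raised Hmgcs1, Pmvk (2.20 ± 0.42, adjusted p = 0.00394) and Fdps (2.58 ± 0.59, adjusted p = 0.00898), all called higher in control over resting cells. Idi1 (2.20 ± 0.84, adjusted p = 0.0682) and Mvd (1.77 ± 0.68, adjusted p = 0.0701) missed the threshold with all control libraries above all resting ones. The interval for Mvk ran from -0.56 to 1.30.

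The squalene and lanosterol steps commit the route to sterols. Lss (chr10:76531588-76557138), the lanosterol synthase gene, had 89.1, 16.4 and 29.4 CPM in the TEPP-46 libraries, 175, 169 and 215 CPM in the control libraries and 11.7, 38.8 and 43.1 CPM in the resting libraries. Each TEPP-46 library was below each control library, and Lss was called lower at -2.04 ± 0.59 (adjusted p = 0.0416). The adjusted p ranged from 0.00156 to 0.145 over 18 alternatives, and leaving out any 1 of 7 libraries, all but resting replicate 1 and TEPP-46 replicate 1, ended the call, as did a fit of only the 2 groups and one with the replicate number as block (-2.12, adjusted p = 0.0734). Sqle, the gene of squalene epoxidase, had 215, 97.9 and 52.1 CPM in the TEPP-46 libraries, 271, 274 and 297 CPM in the control libraries and 25.6, 75.3 and 66.2 CPM in the resting libraries. Fdft1, the squalene synthase gene, had 198, 48.7 and 55.0 CPM in the TEPP-46 libraries, 148, 179.8 and 183 CPM in the control libraries and 37.0, 42.8 and 50.8 CPM in the resting libraries. TEPP-46 replicate 1 was above every control library for Fdft1 and below every one for Sqle. Of the exonic bases of Fdft1, 18.3% overlap Ctsb on the opposite strand, and the sources used here do not give the strand setting of the counting. In Fdps, Idi1 and Hmgcs1, 26.2%, 25.3% and 11.6% of 50-base stretches also occur in other genes, as do 26.5% in Fdft1. Matches on either strand were included, and the main partner of Fdft1 was again Ctsb. The counts of these 4 genes are therefore uncertain, by an amount that was not measured. All of Lss (2.58 ± 0.60), Sqle (2.34 ± 0.51) and Fdft1 (1.96 ± 0.47) were called higher in control over resting cells, with adjusted p-values of 0.00978, 0.00704 and 0.0109.

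Of the 7 genes of the steps after lanosterol, 6 were called higher in control over resting cells (85.7%, against 15.5% of all genes). In all 7 each control library was above each resting library. The libraries did not overlap, in either direction, in 59.2% of all genes. Cyp51, the lanosterol demethylase gene, had 313, 75.2 and 61.8 CPM in the TEPP-46 libraries, 259.5, 257 and 290.1 CPM in the control libraries and 38.8, 70.0 and 60.8 CPM in the resting libraries. TEPP-46 replicate 1 was again above every control library, replicate 4 was above the resting range and replicate 5 within it. Msmo1, the methylsterol oxidase gene, had 249.7, 53.4 and 69.2 CPM in the TEPP-46 libraries, 243, 316 and 314 CPM in the control libraries and 56.1, 74.7 and 61.4 CPM in the resting libraries. Both rose in control over resting cells, Cyp51 by 2.25 ± 0.55 (adjusted p = 0.0114) and Msmo1 by 2.18 ± 0.50 (adjusted p = 0.00872). In TEPP-46 over control cells Cyp51 was at -0.84 (95% interval -1.996 to 0.32) and Msmo1 at -1.22 (-2.29 to -0.16), with adjusted p-values of 0.279 and 0.104.

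Hsd17b7, a reductase gene of the removal of methyl groups, had 23.1, 8.82 and 9.71 CPM in the TEPP-46 libraries, 25.5, 32.6 and 31.0 CPM in the control libraries and 8.25, 10.6 and 11.9 CPM in the resting libraries, and its TEPP-46 libraries did not overlap the control ones (-1.08 ± 0.38, adjusted p = 0.0769). Nsdhl, which encodes a dehydrogenase of the same step, was the member not called between control and resting cells (1.21 ± 0.45, adjusted p = 0.0659). Tm7sf2, a sterol reductase gene, was at 1.43 ± 0.45 in that comparison (adjusted p = 0.0353), and Dhcr7, whose enzyme makes cholesterol from its immediate precursor, at 1.32 ± 0.34 (adjusted p = 0.0159). Sc5d, a sterol desaturase gene, followed another order: it had 173, 96.6 and 95.1 CPM in the TEPP-46 libraries, 96.4, 135 and 123 CPM in the control libraries and 63.8, 71.6 and 58.6 CPM in the resting libraries. All 3 of its TEPP-46 libraries stayed above all resting ones (0.91 ± 0.27, adjusted p = 0.0542). It was called higher in control over resting cells (0.87 ± 0.27, adjusted p = 0.0314), and TEPP-46 over control cells gave 0.05 with an interval from -0.53 to 0.63. The calls for Tm7sf2, Sc5d, Dhcr7 and Hsd17b7 ended in 8, 6, 3 and 1 of the 18 alternatives.

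The sensing and carrying genes were mixed. Stard4, the gene of a protein that carries sterol through the cytosol, had 179, 63.9 and 57.9 CPM in the TEPP-46 libraries, 246, 287 and 281 CPM in the control libraries and 43.3, 61.8 and 48.5 CPM in the resting libraries. All TEPP-46 libraries were below all control libraries. It was called lower in TEPP-46 over control cells (-1.43 ± 0.39, adjusted p = 0.0337) and higher in control over resting cells (2.41 ± 0.40, adjusted p = 0.00213). Leaving out resting replicate 5, any control library, or TEPP-46 replicate 4 or 5 ended the first of these calls, with adjusted p-values up to 0.114. Insig1, which encodes the protein that holds the sensor in the endoplasmic reticulum, had 174, 29.8 and 51.8 CPM in the TEPP-46 libraries, 144, 117 and 135 CPM in the control libraries and 65.4, 52.6 and 45.9 CPM in the resting libraries. TEPP-46 replicate 4 was the lowest of the 9 libraries and replicate 1 the highest. Insig1 was at 1.27 ± 0.51 in control over resting cells (adjusted p = 0.0813).

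Srebf2, the gene of the sterol factor, varied less than most of the enzyme genes: it had 535, 342 and 373 CPM in the TEPP-46 libraries, 497, 562 and 581 CPM in the control libraries and 329, 411 and 373 CPM in the resting libraries. TEPP-46 replicate 1 lay among the control libraries and replicates 4 and 5 among the resting ones. Neither TEPP-46 over control (-0.39, 95% interval -0.88 to 0.09) nor control over resting cells (0.56, interval 0.08 to 1.04, adjusted p = 0.0744) passed the threshold. Scap, the gene of the sterol sensor that escorts the factor, had 95.4, 130.2 and 99.3 CPM in the TEPP-46 libraries, 106, 88.3 and 85.7 CPM in the control libraries and 100.0, 102 and 118 CPM in the resting libraries, with overlap in every comparison and intervals inside -0.64 to 0.66.

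Between TEPP-46 and control cells 2 of 20 sterol genes were called lower (10%, against 6.43% of all genes) and 17 had a negative log2 fold change, with a median of -0.94. An unadjusted p below 0.05 was reached by 7. The count moved with nearly every library left out, as did the share of all genes called lower. Without TEPP-46 replicate 1, 15 sterol genes were called lower, and 16.4% of all genes. Without TEPP-46 replicate 4 or 5, without resting replicate 5 or without any 1 control library, edgeR called no sterol gene, and 1.06% to 5.67% of all genes were called lower. Without resting replicate 4 the count was 1 (4.59% of all genes), and without resting replicate 1 it was 2 (7.37%). The count was also 1 (9.31% of all genes) without TEPP-46 replicate 4 and resting replicate 1 together. That alternative was added after the data were seen. DESeq2 and limma-voom each called 6 lower, against 11.1% and 8.91% of all genes. A fit of only the TEPP-46 and control libraries called 0, against 4.8% of all genes called lower. Of the same 20 genes, 13 were called higher in control over resting cells (65%, against 15.5% of all genes) and the other 7 were not called, with a median of 1.87. Between TEPP-46 and resting cells edgeR called 0 of 20, against 6.37% of all genes called higher, although all 20 had a positive log2 fold change (median 0.91) and 8 an unadjusted p below 0.05. There DESeq2 called 3 higher and limma-voom 0, against 9.63% and 5% of all genes called higher. Closest to the edgeR threshold were Sc5d, given above, and Hmgcs1 (1.27 ± 0.46, 95% interval 0.24 to 2.29, adjusted p = 0.112).

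**Figure D3:**
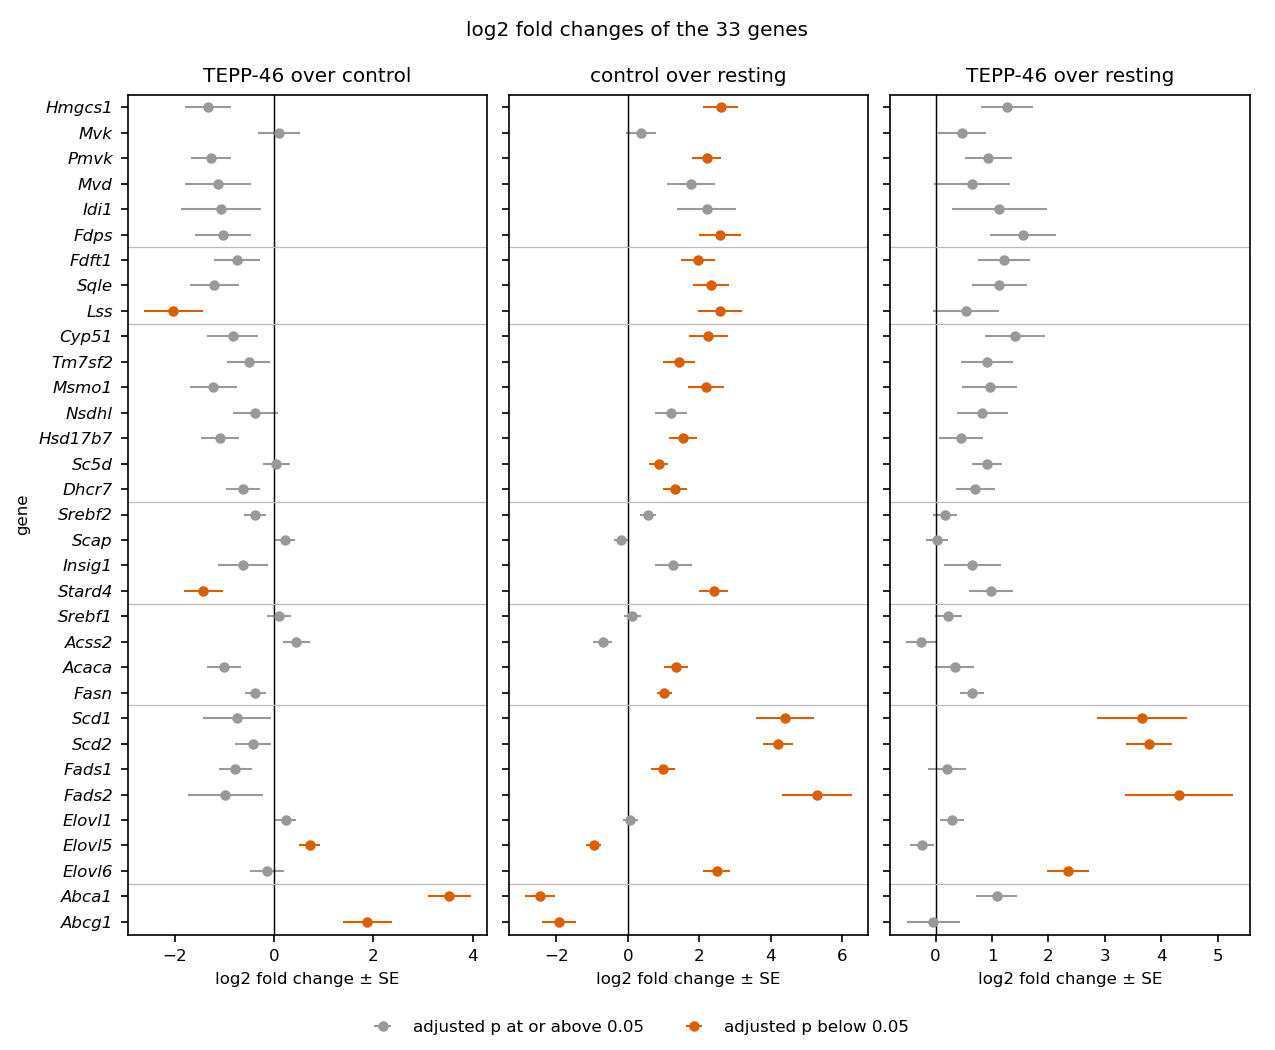
log2 fold change ± SE (horizontal axes) of each of the 33 genes (vertical axis) in TEPP-46 over control, control over resting and TEPP-46 over resting cells, from the edgeR fit; orange marks an adjusted p below 0.05. The sterol genes lie right of 0 in the middle panel apart from Scap, and Lss, Stard4, Elovl5, Abca1 and Abcg1 are the genes called in the left panel.

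Each TEPP-46 library was set against the range of both other groups, as a description. Of the 13 sterol genes called higher in control than resting cells, 7 were at or above the lowest control library in TEPP-46 replicate 1, 1 in replicate 4 and 0 in replicate 5. At or below the highest resting library were 0, 6 and 9 of them. Among all 1938 genes called higher in control than resting cells, the shares at control level were 29.2%, 20% and 15.5% in TEPP-46 replicates 1, 4 and 5, and the shares at resting level were 15.6%, 45.4% and 40.1%. For the 7 fatty acid genes called higher, 4, 1 and 1 were at control level and 0, 2 and 2 at resting level. The median of the 20 sterol genes over the resting mean, on the log2 scale, was 1.73, 0.20 and 0.12 in the TEPP-46 libraries and 1.78 to 2.00 in the control libraries. For the 11 fatty acid genes it was 0.86, 0.38 and 0.39 in the TEPP-46 libraries and 0.92 to 1.07 in the control libraries. The difference between the branches was not tested.

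**Figure D4:**
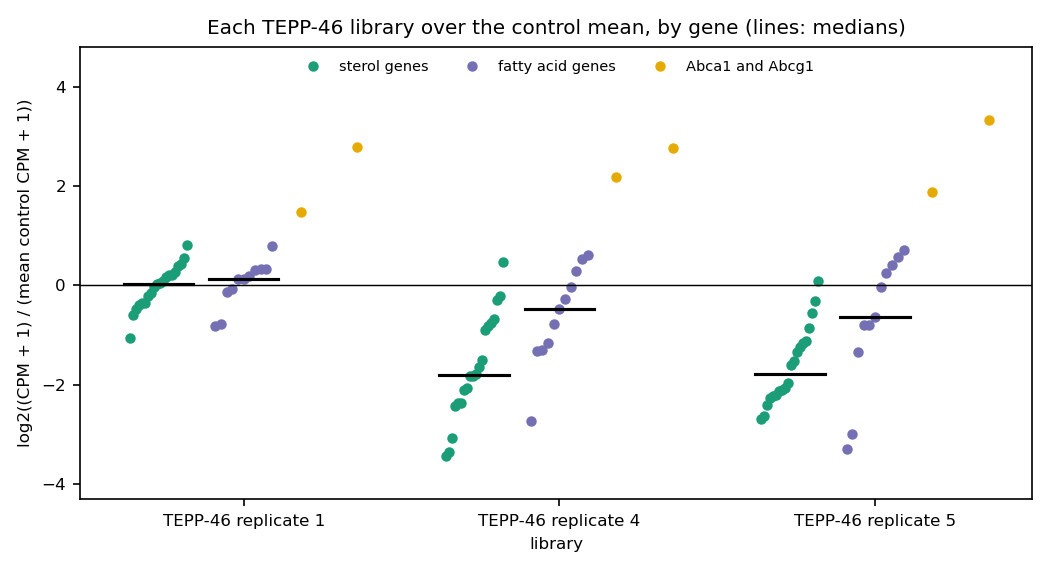
Each gene in each TEPP-46 library (horizontal axis) as log2 of (CPM + 1) over (mean control CPM + 1) (vertical axis), with the sterol genes, the fatty acid genes and the transporters in separate colours and lines at the medians. The sterol genes centre on the control level in replicate 1 and lie mostly below it in replicates 4 and 5, whereas Abca1 and Abcg1 are above it in all 3 libraries.

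Other features also differed among the TEPP-46 libraries. Malat1, a nuclear RNA, had 2532, 12290 and 12820 CPM in the TEPP-46 libraries, 2067 to 4120 CPM in the control libraries and 4373 to 8385 CPM in the resting libraries. Genes of ribosomal proteins summed to 36300, 9167 and 18160 CPM in the TEPP-46 libraries, 23380 to 29890 CPM in the control libraries and 16470 to 23110 CPM in the resting libraries. The 3 markers of platelets and megakaryocytes (Pf4, Ppbp and Itga2b) summed to 16.5, 269 and 83.2 CPM in the TEPP-46 libraries, against 0.960 to 4.91 CPM in the control libraries and 0.865 to 4.83 CPM in the resting libraries. The 4 markers of neutrophils and their precursors summed to 0.825, 132 and 3.88 CPM in TEPP-46 libraries. The sum was 0 in each control library and 99.8 to 146 CPM in resting libraries. Among the TEPP-46 libraries this sum was high in replicate 4 alone, where Mpo had 86.1 and Elane 44.5 CPM. S100a8 and S100a9 had 0 and 1.26 CPM there, and at most 2.905 and 1.056 CPM in any resting library. The part of these features in the levels of the sterol genes was not tested.

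In the fatty acid branch, 7 of 11 genes were called higher in control over resting cells (63.6%, against 15.5% of all genes), Elovl5 was called lower, and the median log2 fold change was 1.01. Fasn (chr11:120805846-120824547), the fatty acid synthase gene, had 143, 108 and 97.1 CPM in the TEPP-46 libraries, 139, 158 and 155.5 CPM in the control libraries and 74.8, 86.1 and 63.0 CPM in the resting libraries. Every TEPP-46 and every control library exceeded every resting one. Control was above resting by 1.02 ± 0.21 (adjusted p = 0.00619), and TEPP-46 over resting cells gave 0.64 ± 0.21 (adjusted p = 0.086). Acaca, the gene of acetyl-CoA carboxylase, which supplies the building block, had 13.5, 9.24 and 13.6 CPM in the TEPP-46 libraries, 29.7, 17.0 and 26.7 CPM in the control libraries and 12.5, 8.45 and 7.79 CPM in the resting libraries. Its TEPP-46 libraries lay below the control libraries (-1.01 ± 0.34, adjusted p = 0.0669), and control exceeded resting cells by 1.35 ± 0.34 (adjusted p = 0.0136), a call lost in 4 of 18 alternatives. Of its 50-base stretches 30.4% also occur in other genes, so its counts are uncertain.

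Srebf1, the gene of the fatty acid factor, did not follow the branch: it had 206, 161 and 159.8 CPM in the TEPP-46 libraries, 157, 155 and 179.5 CPM in the control libraries and 203, 122 and 125 CPM in the resting libraries. The groups overlapped in all comparisons, and the interval was -0.42 to 0.62 in TEPP-46 over control and -0.40 to 0.65 in control over resting cells. Acss2, whose enzyme makes acetyl-CoA from acetate, had 85.0, 109 and 112 CPM in the TEPP-46 libraries, 75.8, 82.6 and 65.8 CPM in the control libraries and 75.6, 147 and 143 CPM in the resting libraries. All TEPP-46 libraries were above all control libraries, at 0.45 with an interval from -0.14 to 1.04 (adjusted p = 0.261).

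The desaturases and elongases held the widest changes against resting cells, in both the TEPP-46 and the control group. Scd2 (chr19:44293674-44306864), a stearoyl-CoA desaturase gene, had 756, 245 and 344 CPM in the TEPP-46 libraries, 659.8, 473 and 670.5 CPM in the control libraries and 31.4, 32.5 and 34.2 CPM in the resting libraries. Every TEPP-46 library was far above every resting one. Its log2 fold change was 3.78 ± 0.40 in TEPP-46 over resting cells (adjusted p = 0.00109), 4.20 ± 0.41 in control over resting cells (adjusted p = 0.000214) and -0.42 in TEPP-46 over control cells (95% interval -1.22 to 0.37). Scd1, its neighbour on chromosome 19 (chr19:44394455-44407879), had 118, 62.2 and 10.03 CPM in the TEPP-46 libraries, 115, 94.6 and 111 CPM in the control libraries and 3.02, 10.3 and 2.16 CPM in the resting libraries. TEPP-46 replicate 5 lay just below the highest resting library. Scd1 was called higher in TEPP-46 over resting (3.65 ± 0.80, adjusted p = 0.0197) and in control over resting cells (4.41 ± 0.82, adjusted p = 0.00353).

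Fads2 and Fads1, desaturase genes of polyunsaturated fatty acids, also sit close together on chromosome 19. Fads2 (chr19:10062765-10101746) had 72.6, 7.98 and 6.47 CPM in the TEPP-46 libraries, 61.3, 57.6 and 55.7 CPM in the control libraries and 0.402, 2.11 and 1.95 CPM in the resting libraries. TEPP-46 replicates 4 and 5 were above every resting library and far below every control library. Fads2 was called higher in TEPP-46 over resting (4.32 ± 0.96, adjusted p = 0.0209) and in control over resting cells (5.30 ± 0.97, adjusted p = 0.00335). Fads1 had 43.2, 20.6 and 18.1 CPM in the TEPP-46 libraries, 44.9, 47.5 and 49.4 CPM in the control libraries and 29.4, 21.1 and 21.0 CPM in the resting libraries. It was called higher in control over resting cells (0.99 ± 0.33, adjusted p = 0.0457), a call that ended on leaving out any control library or resting replicate 4 or 5, and it was at -0.78 ± 0.33 in TEPP-46 over control cells (adjusted p = 0.128).

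The elongases differed among themselves. Elovl6, whose enzyme lengthens palmitate, had 30.8, 44.5 and 71.5 CPM in the TEPP-46 libraries, 41.5, 69.9 and 49.9 CPM in the control libraries and 7.04, 10.3 and 11.5 CPM in the resting libraries. All TEPP-46 and all control libraries were above all resting ones, and among the TEPP-46 libraries replicate 5 was highest. TEPP-46 exceeded resting cells by 2.35 ± 0.37 (adjusted p = 0.00542), control exceeded resting cells by 2.48 ± 0.37 (adjusted p = 0.00134), and the interval of TEPP-46 over control cells ran from -0.89 to 0.62. Elovl5 (chr9:77917364-77984519), an elongase gene for polyunsaturated chains, went the other way, with 265, 231 and 249 CPM in the TEPP-46 libraries, 139, 166 and 149 CPM in the control libraries and 371, 273 and 234 CPM in the resting libraries. All control libraries were below all TEPP-46 and all resting libraries. Elovl5 was called higher in TEPP-46 over control cells (0.72 ± 0.21, adjusted p = 0.0445) and lower in control over resting cells (-0.95 ± 0.21, adjusted p = 0.00792). The first call ended in 11 of 18 alternatives, with adjusted p-values up to 0.158, among them every removal of 1 library except resting replicate 1 and TEPP-46 replicate 1. Elovl1, an elongase gene for very long chains, stayed between 78.96 and 117 CPM in all 9 libraries.

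In all, 4 of 11 fatty acid genes (Scd1, Scd2, Fads2 and Elovl6) were called higher in TEPP-46 over resting cells (36.4%, against 6.37% of all genes). The Scd2 and Elovl6 calls held in all 18 alternatives, whereas those of Scd1 and Fads2 were lost on leaving out resting replicate 1 or 5, among others, with adjusted p-values up to 0.0808 and 0.0909. Between TEPP-46 and control cells the branch had a median log2 fold change of -0.38, with Elovl5 called higher and the other 10 genes not called. Without TEPP-46 replicate 1, 5 were called lower and 1 higher, against 16.4% and 17.5% of all genes.

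Both efflux transporters were called higher in TEPP-46 over control cells and lower in control over resting cells. Abca1 (chr4:53030787-53159895) encodes the pump that loads cholesterol onto lipid-poor apolipoprotein; it had 18.4, 18.1 and 27.2 CPM in the TEPP-46 libraries, 1.47, 1.92 and 2.02 CPM in the control libraries and 14.3, 6.60 and 9.09 CPM in the resting libraries. The control values rest on 22 counts over 3 libraries, against 194 counts in the TEPP-46 libraries. Every TEPP-46 library was above every control and every resting library. Abca1 was called higher in TEPP-46 over control cells (3.54 ± 0.43, an 11.6-fold difference, adjusted p = 0.00206) and lower in control over resting cells (-2.46 ± 0.42, adjusted p = 0.00243). It was at 1.08 ± 0.37 in TEPP-46 over resting cells (adjusted p = 0.0922). The call over control cells held in all 18 alternatives, with adjusted p-values up to 0.019.

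Abcg1 (chr17:31057675-31117988), a related pump that passes cholesterol to mature lipoprotein, had 433, 717 and 577 CPM in the TEPP-46 libraries, 229, 94.3 and 145 CPM in the control libraries and 1084, 313 and 382 CPM in the resting libraries. All control libraries were below all TEPP-46 and all resting libraries. It was called higher in TEPP-46 over control cells (1.88 ± 0.49, adjusted p = 0.0287) and lower in control over resting cells (-1.93 ± 0.49, adjusted p = 0.014). Leaving out any control library or TEPP-46 replicate 4 or 5 ended the first call, with adjusted p-values up to 0.107 and log2 fold changes of 1.61 or more, and the second was lost without control replicate 4 or 5 (up to 0.059). The interval in TEPP-46 over resting cells was -1.08 to 0.995. Macrophages carry much Abca1 and Abcg1, and 6 macrophage and monocyte markers summed to 19.5, 56.3 and 28.2 CPM in the TEPP-46 libraries, 32.4, 19.7 and 24.0 CPM in the control libraries and 40.6, 56.5 and 42.0 CPM in the resting libraries. Of the 6, 3 passed the filter, and Lyz2 was called higher in TEPP-46 over control cells (3.79 ± 0.91, adjusted p = 0.0225), with 1.65, 8.40 and 5.18 CPM in the TEPP-46 libraries, 0.736, 0 and 0.252 CPM in the control libraries and 10.3, 29.3 and 16.9 CPM in the resting libraries. Csf1r and Cd68, with 8.25 to 12.0 and 8.41 to 10.1 CPM in the TEPP-46 libraries, were not called in that comparison. Adgre1 had 0, 64 and 6 counts in the TEPP-46 libraries, 0 in each control library and 1, 5 and 2 counts in the resting libraries. Itgam had at most 5 counts in any library, and C1qa had 0 in every TEPP-46 and control library and 1 count in the resting group. B cell markers, given above, also ran lowest in the control libraries. The part of the macrophage and B cell markers in the transporter levels was not tested.

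Levels were also divided by the kilobases of all annotated exons of each gene. That length can exceed the transcript expressed here, so comparison between genes on this scale is approximate. Per kilobase, the leading members differed between groups. In TEPP-46 cells they were Scd2, Abcg1, Elovl5 and Srebf2, at 82.1, 78.9, 70.5 and 58.0 CPM per kilobase on average. The order varied among the libraries: Scd2 had 138, 44.9 and 62.9 and Abcg1 had 59.4, 98.2 and 79.1 CPM per kilobase, so that Scd2 led in replicate 1 and Abcg1 in replicates 4 and 5. Hmgcs1, Scd2, Srebf2 and Cyp51 led in control cells, at 120.3, 110, 76.1 and 60.9 CPM per kilobase. Resting cells had Elovl5, Abcg1, Srebf2 and Elovl1 on top, at 83.2, 81.3, 51.6 and 33.4 CPM per kilobase, with Abcg1 at 148.5, 42.9 and 52.4. At the low end stood Acaca in TEPP-46 cells (0.709), Abca1 in control cells (0.174) and Fads2 in resting cells (0.451).

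Other genes of these pathways were read from 4 lists. Of 14 further sterol pathway genes, all tested, 1 was called higher and 1 lower in TEPP-46 over control cells (7.14% each, near the 9.72% and 6.43% of all genes). The gene called lower was Acat2, which encodes the thiolase at the entry of the route (-1.98 ± 0.32, adjusted p = 0.00514); it had 83.6, 40.8 and 34.6 CPM in the TEPP-46 libraries, 209, 201 and 221 CPM in the control libraries and 39.8, 44.1 and 54.7 CPM in the resting libraries. Every TEPP-46 library was below every control library. The gene called higher was Mbtps1 (0.97 ± 0.18, adjusted p = 0.00822), whose protease makes the first cut in freeing the sterol factor. Mbtps1 had 135, 133 and 155 CPM in the TEPP-46 libraries, 68.9, 72.5 and 74.4 CPM in the control libraries and 157, 154.5 and 134 CPM in the resting libraries. In control over resting cells 5 were called higher and 2 lower (35.7% and 14.3%, against 15.5% and 15.8% of all genes), led by Acat2 (2.18, adjusted p = 0.00123), Insig2 (1.23, adjusted p = 0.00206), a relative of Insig1, and Mbtps1 (-1.05, adjusted p = 0.00216). In TEPP-46 over resting cells Insig2 (0.91, adjusted p = 0.0212) and Npc1 (0.83, adjusted p = 0.0331), the lysosomal cholesterol exporter, were called higher (14.3%, against 6.37% of all genes). The median log2 fold changes were -0.11, 0.25 and 0.23 in TEPP-46 over control, control over resting and TEPP-46 over resting cells.

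Of 21 further genes of fatty acid synthesis and activation 14 were tested, and 2 were called lower in TEPP-46 over control cells (14.3%, against 6.43% of all genes): Slc25a1, the mitochondrial citrate carrier that exports carbon for lipid synthesis (-1.35 ± 0.28, adjusted p = 0.0126), and Acsl1, a fatty acid activating enzyme (-1.26 ± 0.30, adjusted p = 0.0208). Slc25a1 had 79.2, 41.6 and 46.3 CPM in the TEPP-46 libraries, 151, 131 and 146 CPM in the control libraries and 27.0, 24.6 and 37.6 CPM in the resting libraries. All its TEPP-46 libraries lay between the ranges of both other groups. In control over resting cells 4 were called higher (28.6%, against 15.5% of all genes), led by Slc25a1 (2.26, adjusted p = 0.00069), Acsl4 (1.72, adjusted p = 0.00155) and Mid1ip1 (1.36, adjusted p = 0.00668), and Acsl4 and Mid1ip1 were also called higher in TEPP-46 over resting cells (1.41 and 1.06, adjusted p = 0.0108 and 0.0461).

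Of 6 genes of the liver X receptors and other targets, 5 were tested, of which 1 was called higher in TEPP-46 over control cells, against 9.72% of all genes. Mylip, a target that encodes a ubiquitin ligase, was that gene (2.61 ± 0.39, adjusted p = 0.00381); it had 25.3, 33.6 and 38.8 CPM in the TEPP-46 libraries, 7.85, 4.56 and 3.53 CPM in the control libraries and 82.1, 47.3 and 42.8 CPM in the resting libraries. All 5 had a positive log2 fold change in that comparison (median 0.72) and a negative one in control over resting cells (median -1.73), where Mylip (-3.43, adjusted p = 0.000414), Smpdl3a (-1.73, adjusted p = 0.00691) and Arl4c (-2.10, adjusted p = 0.0181) were called lower, against 15.8% of all genes. Of 12 fatty acid oxidation genes, all tested, 1 was called higher in each of 2 comparisons (8.33%, against 9.72% and 15.5% of all genes). These were Cpt1a, which admits long chains to the mitochondrion, in TEPP-46 over control cells (1.23 ± 0.30, adjusted p = 0.0243), and Etfdh in control over resting cells (1.02 ± 0.31, adjusted p = 0.0293). The comparisons share the control libraries, and the lists were chosen with earlier results of these data known.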

How the data were processed

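RNA was sequenced from 9 libraries of mouse CD4+ T cells in 3 groups of 3. Raw counts of reads per gene were deposited by the authors as 1 table of whole numbers, not normalized, headed by sample titles. Per the submitters' processing notes, the build was GRCm38 and DESeq2 was used; the sources used here name no aligner, counter, strand setting or annotation. Symbols came from GENCODE M21, which paired 47224 of 47937 identifiers; 713 stayed unpaired.

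Genes with low counts were filtered by filterByExpr of edgeR 4.0.16 (R 4.3.3; minimum count 10, minimum total 15), leaving 12536 of 23436 genes with a count. Counts were scaled by TMM, fitted by group with glmQLFit and tested with glmQLFTest, two-sided, with Benjamini-Hochberg adjustment over all genes tested and a threshold of 0.05 (common dispersion 0.109, 6 residual degrees of freedom). CPM are counts per 1000000 of the TMM-scaled library. They are shares of a library, not amounts per cell. Intervals are 95% and follow from the fit. Floors cover counting error only. The code was tested on simulated data.

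Alternatives were DESeq2 1.42.0, limma-voom (limma 3.58.1), other scaling, no filter or a stricter one (1 CPM in 6 libraries), fits of only the 2 groups in question, a fit with replicate number as block, and removal of each library in turn. Library depth of 2397304 to 5030643 limits low genes such as Abca1 and Idi1.

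The members and lists were chosen with earlier results of these data known. All 33 members are named, and from each further list up to 3 genes per comparison in order of adjusted p.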

Additional observations from a re-analysis of the deposited data

How the results depend on the processing

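Log2 fold changes of the 33 genes were recomputed under 18 alternatives for each of 3 comparisons. Leaving out 1 library moved the counts of genes called from 395 (without control replicate 5) to 4407 (without TEPP-46 replicate 1) in TEPP-46 over control (2025 reported), from 2316 to 5194 in control over resting (3914 reported) and from 426 to 1897 in TEPP-46 over resting cells (1289 reported). For the sterol branch these ranges were 0 to 15 in TEPP-46 over control (2 reported) and 0 to 4 in TEPP-46 over resting (0 reported), and for the fatty acid branch 0 to 6 (1 reported) and 2 to 4 (4 reported). In control over resting cells the branch counts stayed within 1.5 times those reported in all alternatives. DESeq2 called 3057 genes in TEPP-46 over control and 2090 in TEPP-46 over resting cells. In TEPP-46 over resting cells the fit of only the 2 groups called 400 genes, and leaving out TEPP-46 replicate 4 and resting replicate 1 together, chosen after the data were seen, gave 1938. On total counts 5 sterol genes were called lower in TEPP-46 over control cells, against 9.43% of all genes called lower. The count lower was 6 without a filter (4.81% of all genes), 6 with DESeq2 (11.1%) and 6 with limma-voom (8.91%). It was 0 with only the 2 groups (4.8%) and 1 without that pair of libraries (9.31%). Against resting cells the sterol genes called numbered 5 without a filter and 3 with DESeq2, all higher, against 4.8% and 9.63% of all genes. Fatty acid genes called in TEPP-46 over control cells numbered 0 with RLE size factors, 0 without a filter and 2 with DESeq2 (1 higher, 1 lower). The shares of all genes called higher and lower were 9.08% and 6.84%, 6.06% and 4.81%, and 13.3% and 11.1% in those settings. On total counts Elovl5 was no longer called, and the 1 gene called was another, Acaca, which was lower. Against resting cells the fatty acid genes called higher numbered 2 with limma-voom and 2 with only the 2 groups, against 5% and 2.08% of all genes. DESeq2 gave no adjusted p for Fads2 and Idi1, for which 17 alternatives remained. The cause of these shifts was not tested.

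The fit with the replicate block called 705 genes in TEPP-46 over resting cells. In TEPP-46 over control cells it called 1 sterol gene lower and 0 fatty acid genes, against 6.57% of all genes higher and 4.47% lower. The calls it ended were those of Lss (adjusted p = 0.0734) and Elovl5 (0.0755) in TEPP-46 over control, Tm7sf2 (0.0652) and Sc5d (0.0528) in control over resting and Fads2 (0.0696) in TEPP-46 over resting cells. With the block, Mvk turned to -0.041 in TEPP-46 over control and Abcg1 to 0.23 in TEPP-46 over resting cells. Correlations of deviations from the group means ran from -0.123 to 0.089 between same-numbered libraries. Between control and TEPP-46 they were 0.058, 0.036 and 0.087, and there each library correlated best with its own number. Between resting and control they were 0.068, 0.089 and -0.026, and between resting and TEPP-46 -0.106, -0.09 and -0.123. Whether control and TEPP-46 libraries are paired cannot be told from such small values. No label says that a number marks a shared animal or day, so the main fit was not paired.

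Scaling by total counts gave 43.8% of calls as higher in TEPP-46 over control cells (60.2% reported) and 58.2% in control over resting cells (49.5% reported), with medians over all genes of -0.09 and 0.07; limma-voom gave 47.6% in TEPP-46 over control cells.

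Fold changes that changed sign were not called in either setting. In TEPP-46 over control cells, total counts gave -0.048 for Mvk, -0.092 for Sc5d and -0.038 for Srebf1, and limma-voom gave -0.046 for Mvk. Leaving out 1 library gave -0.56 to 0.42 for Mvk, -0.31 to 0.20 for Sc5d, -0.042 to 0.16 for Srebf1 and -0.52 to 0.11 for Elovl6. In control over resting cells it gave -0.006 to 0.41 for Srebf1 and -0.033 to 0.26 for Elovl1. In TEPP-46 over resting cells it gave -0.19 to 0.80 for Mvk, -0.82 to 1.10 for Mvd, -1.27 to 1.64 for Idi1, -0.43 to 0.94 for Lss, -0.068 to 1.32 for Msmo1, -0.15 to 0.69 for Hsd17b7, -0.062 to 0.29 for Srebf2, -0.42 to 1.05 for Insig1 and -0.31 to 0.43 for Fads1, each low end without TEPP-46 replicate 1, and -0.13 to 0.093 for Scap and -0.36 to 0.72 for Abcg1. There total counts gave -0.001 for Scap and limma-voom 0.16 for Abcg1, and leaving out the pair of libraries gave -0.18 for Scap, 0.017 for Elovl5 and 0.54 for Abcg1.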
